A study of Mus musculus with 36 samples.

Results

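The genes described here are 4 genes of the primary (azurophil) granules of neutrophils, *Elane*, *Prtn3*, *Mpo* and *Ctsg*, in dendritic cells (DCs) grown from mouse bone marrow. They were chosen by symbol, each was represented by 1 transcript cluster of the array, and they are 4 of the 19938 genes tested. Bone marrow cells of Balb/c mice between 10 and 12 weeks old were cultured for 6 days with 100 ng/ml of the growth factor GM-CSF. Soluble human thrombomodulin (sTM), which holds the extracellular domains of this thrombin receptor, was added at 200 nM on day 4 to the treated cultures, and untreated cultures received none. For the sorted samples, cells carrying thrombomodulin (TM) at the surface were captured at harvest by an antibody on magnetic beads (TM+ DCs), and the remaining cells formed the TM- DCs. RNA was hybridized to 36 Affymetrix whole-transcript arrays, which comprised 4 of untreated TM+ DCs, 4 of untreated TM- DCs, 6 of sTM-treated TM+ DCs, 6 of sTM-treated TM- DCs, 8 of untreated unsorted DCs and 8 of sTM-treated unsorted DCs. All groups shared the strain, GM-CSF and the day of harvest. Experiment 2 held no sorted DCs of untreated cultures, experiment 4 held no unsorted DCs, and experiment 1 held unsorted DCs alone, so only experiment 3 held all 6 groups. Arrays are named below by experiment and replicate (3-2 is the second array of its group in experiment 3). The labels call arrays of 1 group and experiment biological replicates, without saying whether these were separate cultures or mice, so p-values measure the spread between arrays.

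Granulocyte precursors make primary granules at the promyelocyte stage, and transcription of the granule proteins is largely shut off as the cells mature. *Elane* encodes neutrophil elastase, *Prtn3* proteinase 3 and *Ctsg* cathepsin G, which are serine proteases stored active in these granules. *Mpo* encodes myeloperoxidase, the heme enzyme that makes hypochlorous acid from the peroxide supplied by the NADPH oxidase. Cultures of bone marrow in GM-CSF yield granulocytes and macrophages beside DCs, and mRNA of these 4 genes is used as a mark of granulocyte-monocyte precursors. The question addressed was whether such mRNA differed between the sorted fractions and with sTM.

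*Prtn3* and *Elane* are neighbours on the forward strand of chromosome 10, at chr10:79879667-79883174 and chr10:79886312-79888216, with 3137 bases between them (GRCm38.p6, RefSeq NM_011178.2 and NM_015779.2). *Mpo* is at chr11:87793784-87804412 (NM_010824.2) and *Ctsg*, on the reverse strand, at chr14:56099885-56102574 (NM_007800.2). The 250 bases before each transcription start are shown (RefSeq, GRCm38.p6), because the 4 genes are thought of as 1 promyelocyte program and the values below differ between them. Capitals mark GAGGAA, the core of a PU.1 site, which was searched on both strands. PU.1 is the Ets-family factor of myeloid cells.
Elane promoter, chr10:79886062-79886311, forward strand: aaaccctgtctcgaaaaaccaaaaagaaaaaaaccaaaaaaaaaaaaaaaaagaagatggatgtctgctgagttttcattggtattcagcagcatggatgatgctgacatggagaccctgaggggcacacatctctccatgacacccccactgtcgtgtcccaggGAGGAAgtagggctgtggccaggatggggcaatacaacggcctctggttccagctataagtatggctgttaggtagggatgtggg
Prtn3 promoter, chr10:79879417-79879666, forward strand: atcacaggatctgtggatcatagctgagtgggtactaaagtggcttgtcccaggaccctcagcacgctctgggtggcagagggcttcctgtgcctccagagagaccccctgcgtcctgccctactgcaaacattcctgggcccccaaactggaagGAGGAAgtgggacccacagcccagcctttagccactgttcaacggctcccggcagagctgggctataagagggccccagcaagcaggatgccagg
Mpo promoter, chr11:87793534-87793783, forward strand: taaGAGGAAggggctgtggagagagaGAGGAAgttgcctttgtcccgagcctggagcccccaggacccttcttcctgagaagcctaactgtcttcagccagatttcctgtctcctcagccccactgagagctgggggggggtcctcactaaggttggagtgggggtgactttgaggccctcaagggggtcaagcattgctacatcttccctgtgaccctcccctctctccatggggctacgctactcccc
Ctsg promoter, chr14:56102575-56102824, reverse strand: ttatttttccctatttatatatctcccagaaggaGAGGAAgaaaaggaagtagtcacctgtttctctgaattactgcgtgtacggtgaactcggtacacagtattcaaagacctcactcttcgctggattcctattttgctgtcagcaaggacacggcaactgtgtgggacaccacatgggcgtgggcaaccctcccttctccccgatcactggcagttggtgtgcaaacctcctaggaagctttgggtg
GAGGAA was found in all 4 windows on the strand of the gene, and in 23.25% of the 32851 RefSeq promoters searched over the same 250 bases. In the adjoining genes it lay 85 to 80 bases before the start of *Elane* and 95 to 90 bases before that of *Prtn3*. It lay at -216 to -211 in *Ctsg* and, as 2 copies, at -247 to -242 and -224 to -219 in *Mpo*. TTNNGNAA, a C/EBP motif, had no match in any of the 4 windows and a match in 36.85% of all promoters. AACNG, a MYB motif, matched 2 times in *Elane*, 3 in *Prtn3*, 1 in *Mpo* and 3 in *Ctsg*, and was present in 74.19% of all promoters. TGTGGT, a RUNX motif, matched only in *Ctsg* among these genes (14.05% of all promoters). A match describes letters and is not evidence of binding.

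Values are log2 of the deposited RMA intensities. The 4 genes lay between 5.38 and 8.02 in all arrays, where the median of all transcript clusters was 6.60 to 6.81 per array, the 25th percentile 5.24 to 5.53 and the 75th percentile 8.24 to 8.65. Detection calls were not used, and 8 genes of lymphoid and erythroid cells spanned 3.99 to 7.60 in the same arrays, so these values do not show by themselves that a gene was expressed. Differences are therefore given as differences of log2 intensity, with no fold of mRNA. Probes differ in brightness, so levels were compared between groups and not between genes. Arrays of the same group and experiment correlated at 0.968 or more in sorted DCs and at 0.948 or more in unsorted DCs. *Itgax*, which encodes the DC integrin CD11c, was at 11.73 to 12.21 in TM- and 12.02 to 12.35 in TM+ DCs. *Thbd*, which encodes TM itself, was 0.24 higher in TM+ DCs (SE 0.12, adjusted p = 0.12 with limma) and was not called, so its mRNA did not check the sort. In RNA from whole cell populations, fewer cells of a type and less RNA per cell cannot be told apart.

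*Elane* was higher in TM+ than in TM- DCs of untreated cultures. *Prtn3* was called higher in TM+ DCs over both treatments together but in neither alone, and this call held in 16 of 33 alternative settings. *Mpo* and *Ctsg* were not called in either comparison. Genes with a limma p under 0.05 after Benjamini-Hochberg adjustment over all genes are named as called. For the sorting effect, the mean of the TM+ minus TM- differences in untreated and sTM-treated cultures, 2 of the 4 genes were called, both higher in TM+ DCs, against 37.3% of all genes called in either direction. In untreated cultures 1 of 4 was called (21.1% of all genes), and in sTM-treated cultures 0 of 4 (24.0% of all genes). These shares are not far from the background, and the median sorting effect of the 4 genes was 0.22 against -0.08 over all genes.

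**Figure D1:**
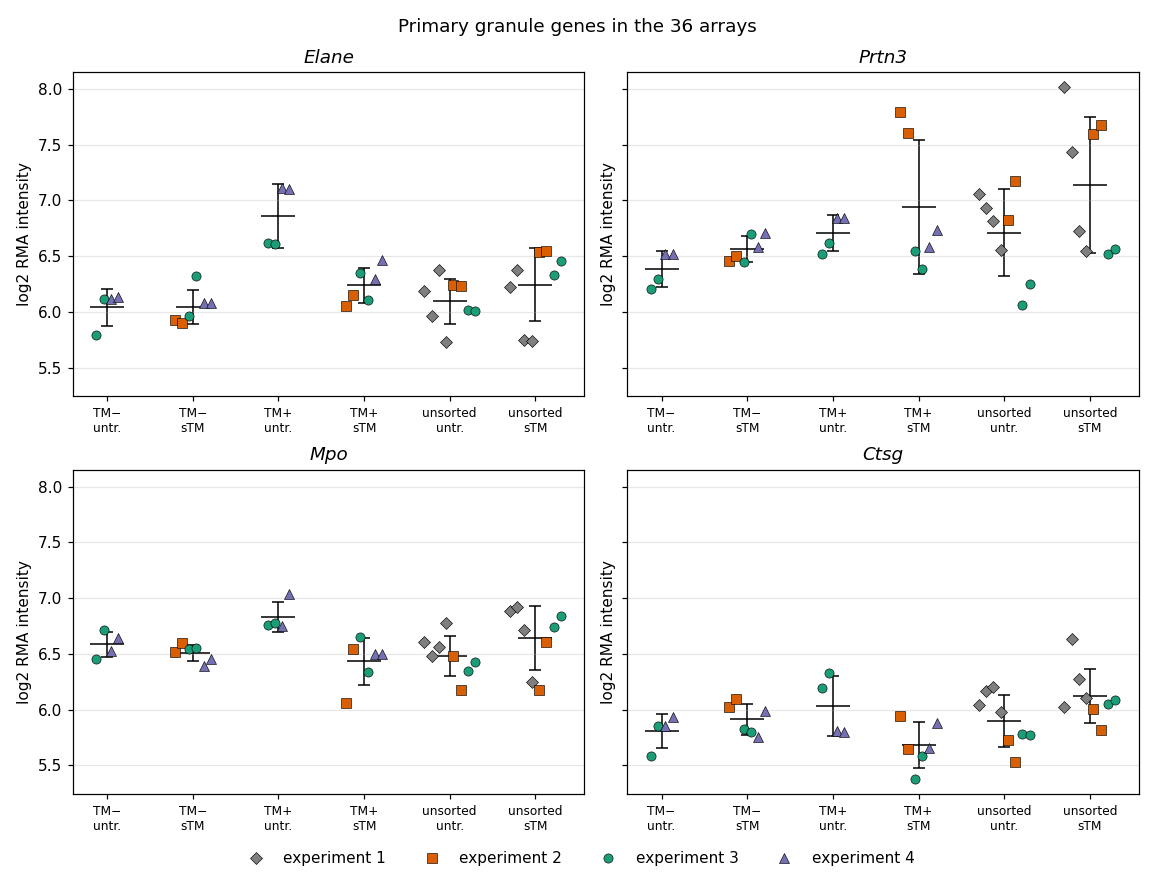
Log2 RMA intensity (y axis) of the 4 genes in each of the 36 arrays, by sorting and treatment (x axis, untr. = untreated), with colour and shape for the experiment and black bars for the mean and SD of each group. The 4 untreated TM+ arrays lay above all other sorted arrays for *Elane*, and the 2 TM+ arrays of experiment 2 stood above the other sorted arrays for *Prtn3*.

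*Elane* was highest in untreated TM+ DCs. Its log2 values there were 6.62, 6.61, 7.11 and 7.10 (arrays 3-1, 3-2, 4-1 and 4-2), and 5.79, 6.11, 6.12 and 6.13 in untreated TM- DCs. The groups did not overlap, with a gap of 0.48 between them. The difference was 0.82 (SE 0.11, 95% interval 0.58 to 1.06, adjusted p = 2.4e-05 with limma), and TM+ DCs were higher in 4 of 4 pairs of arrays. It was 0.66 within experiment 3 and 0.98 within experiment 4. In sTM-treated cultures the values were 6.06 to 6.46 with a median of 6.23 in TM+ DCs and 5.90 to 6.32 with a median of 6.02 in TM- DCs. These groups overlapped, and the difference of 0.19 (SE 0.09, 95% interval -0.0016 to 0.39, adjusted p = 0.13) was not called, with TM+ DCs higher in 5 of 6 pairs. Averaged over both treatments, *Elane* was 0.51 higher in TM+ DCs (SE 0.07, adjusted p = 1.48e-05).

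With sTM, *Elane* was lower in TM+ DCs and close to its untreated level in TM- DCs. All 6 sTM-treated TM+ arrays lay below the 4 untreated TM+ arrays, with a gap of 0.15. The difference was -0.58 (SE 0.11, 95% interval -0.80 to -0.35, adjusted p = 0.0142 with limma), and was -0.39 within experiment 3 and -0.73 within experiment 4. Of the 4 genes *Elane* alone was called in this comparison, where 0.853% of all genes were. The call was lost without experiment 2 (-0.56, adjusted p = 0.093), without experiment 4 (-0.38, adjusted p = 0.338) and without any 1 of the TM+ arrays untreated 4-1, untreated 4-2 and sTM-treated 3-2 (-0.51, -0.52 and -0.55, highest adjusted p = 0.0697). In TM- DCs the difference was 0.05 (95% interval -0.17 to 0.28, adjusted p = 0.998). The interaction, which tests whether the effect of sTM differed between TM+ and TM- DCs, was -0.63 (SE 0.15) with an unadjusted p of 0.000348 and an adjusted p of 0.183 and was not called. Ordered by their means, untreated TM+ DCs (6.86 ± 0.29, SD, n = 4) were followed by sTM-treated unsorted (6.24 ± 0.33, n = 8), sTM-treated TM+ (6.24 ± 0.16, n = 6), untreated unsorted (6.09 ± 0.21, n = 8), sTM-treated TM- (6.05 ± 0.16, n = 6) and untreated TM- DCs (6.04 ± 0.16, n = 4). From sTM-treated unsorted DCs downward each group overlapped with its neighbour. Group means here and below were taken over different sets of experiments, so their order is not a comparison within experiments.

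*Prtn3*, whose gene lies next to *Elane*, had its highest sorted values in the TM+ DCs of experiment 2. In untreated cultures it was at 6.52, 6.62, 6.85 and 6.84 in TM+ DCs and at 6.21, 6.29, 6.52 and 6.52 in TM- DCs. TM+ DCs were higher in 4 of 4 pairs, by 0.31 to 0.33, but the values of the 2 experiments overlapped and the difference of 0.32 (SE 0.19, adjusted p = 0.28) was not called. In sTM-treated cultures the 2 TM+ arrays of experiment 2 were at 7.79 and 7.61, and the TM- arrays of that experiment at 6.45 and 6.50. In experiments 3 and 4 the sTM-treated TM+ arrays were at 6.54, 6.38, 6.58 and 6.73, within the range of the TM- arrays, which reached 6.71, apart from the lowest and the highest. The difference with sTM was thus 1.22 within experiment 2, -0.11 within experiment 3 and 0.01 within experiment 4, and 0.37 over all (SE 0.16, adjusted p = 0.0864).

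Over both treatments *Prtn3* was 0.35 higher in TM+ DCs (SE 0.13, 95% interval 0.09 to 0.61, adjusted p = 0.0341). Without experiment 2 the difference was 0.14 and was not called (adjusted p = 0.111), and without experiment 4 it was 0.44 (adjusted p = 0.175). The call was also lost without any 1 of 10 of the 20 arrays, which were 2-1 and 2-2 of both fractions with sTM and 3-2, 4-1 and 4-2 of both fractions untreated (0.28 to 0.36, highest adjusted p = 0.0643). The fitted effect of sTM on *Prtn3* was 0.11 in TM+ DCs (95% interval -0.27 to 0.49) and 0.06 in TM- DCs (95% interval -0.32 to 0.44), and neither was called. These fits also draw on experiment 2, which held no untreated sorted DCs. Within experiments 3 and 4, the only ones with both treatments, the difference in TM+ DCs had the opposite sign, at -0.11 and -0.19, with sTM-treated arrays lower in 3 of 4 pairs. In TM- DCs it was 0.32 and 0.13, with sTM-treated arrays higher in 4 of 4 pairs and above the untreated arrays in both experiments. By its means the order was sTM-treated unsorted (7.14 ± 0.61, SD, n = 8), sTM-treated TM+ (6.94 ± 0.60, n = 6), untreated unsorted (6.71 ± 0.39, n = 8), untreated TM+ (6.71 ± 0.16, n = 4), sTM-treated TM- (6.57 ± 0.12, n = 6) and untreated TM- DCs (6.39 ± 0.16, n = 4), and all neighbours overlapped. The sTM-treated TM+ mean includes experiment 2 (7.70), while untreated TM+ DCs came from experiments 3 and 4 alone.

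*Mpo* was not called in any comparison within the sorted DCs. It was at 6.76, 6.78, 6.75 and 7.03 in untreated TM+ DCs and at 6.46, 6.71, 6.53 and 6.64 in untreated TM- DCs. The groups did not overlap, with a gap of 0.04, and the difference of 0.25 (SE 0.11, 95% interval 0.02 to 0.48, adjusted p = 0.126) was not called. With sTM, TM+ DCs were at 6.06 to 6.65 (median 6.50) and TM- DCs at 6.39 to 6.59 (median 6.53), and TM+ DCs were higher in 3 of 6 pairs. All sTM-treated TM+ arrays lay below the untreated ones, with a gap of 0.10, and the difference was -0.38 (SE 0.10, 95% interval -0.60 to -0.17, unadjusted p = 0.00138 in limma, adjusted p = 0.092). The sorting effect over both treatments was 0.08 (95% interval -0.06 to 0.23, adjusted p = 0.338). Group means ran from 6.83 ± 0.14 (SD, n = 4) in untreated TM+ DCs through sTM-treated unsorted, untreated TM-, sTM-treated TM- and untreated unsorted DCs to 6.43 ± 0.21 (n = 6) in sTM-treated TM+ DCs, with overlap between all neighbours.

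The sorting effect of *Ctsg* over both treatments was -0.0019 (SE 0.08, 95% interval -0.17 to 0.17, adjusted p = 0.987). It was at 6.20 and 6.33 in the untreated TM+ DCs of experiment 3 and at 5.81 and 5.80 in those of experiment 4, against 5.58, 5.85, 5.85 and 5.93 in untreated TM- DCs. TM+ DCs were thus above TM- DCs in experiment 3, by 0.54, and below them in experiment 4, by a difference of -0.09, and the mean difference of 0.23 was not called (adjusted p = 0.241). With sTM, TM+ DCs were at 5.38 to 5.95 (median 5.65) and TM- DCs at 5.75 to 6.09 (median 5.91). TM+ DCs were lower in 6 of 6 pairs, and the difference of -0.23 (95% interval -0.45 to -0.01, unadjusted p = 0.0382 in limma, adjusted p = 0.107) was not called. In TM+ DCs *Ctsg* differed by -0.40 with sTM (SE 0.12, unadjusted p = 0.00351 in limma, adjusted p = 0.147), which was -0.78 within experiment 3 and -0.04 within experiment 4. Its group means ran from 6.12 ± 0.24 (SD, n = 8) in sTM-treated unsorted DCs to 5.68 ± 0.21 (n = 6) in sTM-treated TM+ DCs, with overlap between all neighbours.

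**Figure D2:**
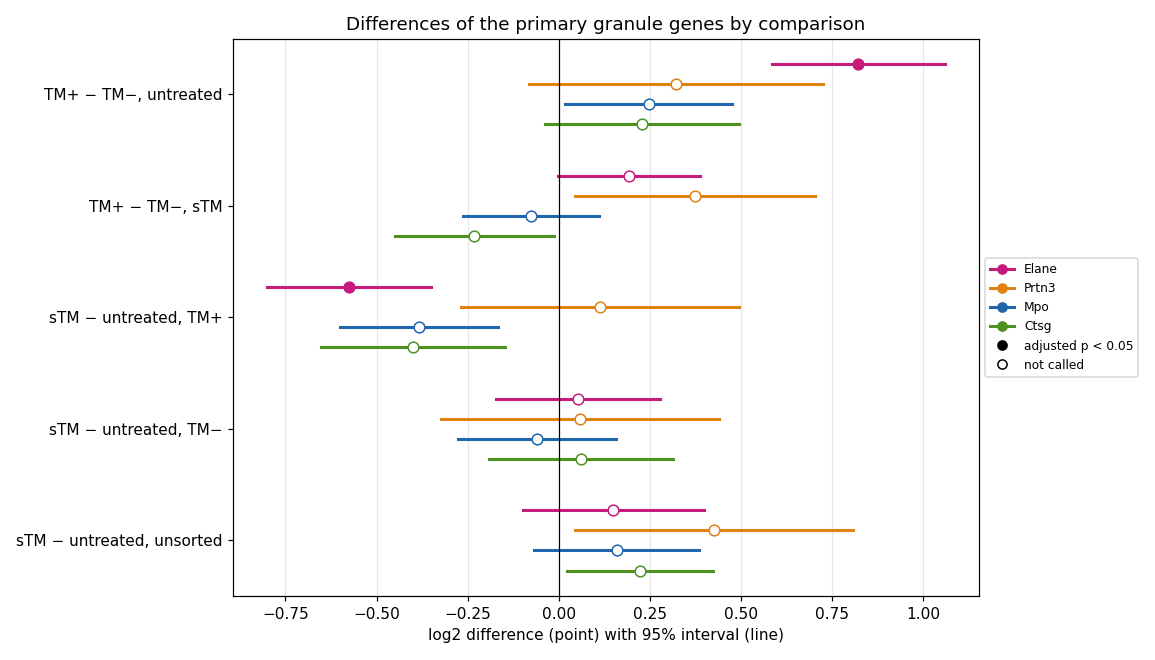
Log2 differences (x axis) with 95% intervals for the 4 genes in 5 comparisons (y axis), from limma, with filled points for genes called over all genes tested. *Elane* was called in untreated cultures (0.82) and for sTM in TM+ DCs (-0.58), and no other point of these comparisons was.

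Averaged over TM+ and TM- DCs, the effect of sTM was -0.26 for *Elane*, 0.09 for *Prtn3*, -0.22 for *Mpo* and -0.17 for *Ctsg*, and 0 of 4 were called (0.0150% of all genes). In TM- DCs all 4 fitted estimates lay between -0.06 and 0.06, although *Prtn3* was higher by 0.32 and 0.13 within experiments 3 and 4, and 0 of 4 genes and 0% of all genes were called there (722 at an unadjusted p under 0.05 in limma). For the interaction 0 of 4 were called (0.0100% of all genes), at -0.46 for *Ctsg* (adjusted p = 0.567), -0.32 for *Mpo* (adjusted p = 0.763) and 0.05 for *Prtn3* (adjusted p = 0.996).

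In unsorted DCs the estimates for sTM were positive for all 4 genes, and none was called. *Prtn3* was at 6.06 to 7.17 (median 6.82) in untreated and 6.52 to 8.02 (median 7.08) in sTM-treated unsorted DCs. *Ctsg* was at 5.53 to 6.20 (median 5.88) and 5.81 to 6.64 (median 6.07). *Elane* ranged from 5.73 to 6.38 (median 6.10) and from 5.74 to 6.55 (median 6.35), and *Mpo* from 6.18 to 6.77 (median 6.48) and from 6.17 to 6.92 (median 6.73). All 4 genes overlapped between treatments. The difference with sTM was 0.43 for *Prtn3* (SE 0.18, unadjusted p = 0.0307 in limma), 0.22 for *Ctsg* (SE 0.10, unadjusted p = 0.0304 in limma), 0.16 for *Mpo* and 0.15 for *Elane*, each with an adjusted p of 0.999. Called were 0 of 4 genes and 0% of all genes (940 at an unadjusted p under 0.05 in limma). sTM-treated arrays were higher in 7 of 8 pairs for *Elane* and *Ctsg* and in 6 of 8 for *Prtn3* and *Mpo*. Replicates of experiment 1 spread widely. There the sTM-treated arrays 1-1 to 1-4 were at 8.02, 7.44, 6.72 and 6.55 for *Prtn3* and at 6.22, 6.37, 5.75 and 5.74 for *Elane*. The untreated arrays 1-1 to 1-4 were at 6.19, 5.97, 6.38 and 5.73 for *Elane*. In experiment 3 the sTM-treated unsorted arrays lay above the untreated ones for all 4 genes, by 0.38 for *Elane*, 0.39 for *Prtn3*, 0.41 for *Mpo* and 0.29 for *Ctsg*.

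The difference between the effect of sTM in unsorted and in TM+ DCs was then tested in a fit of all 36 arrays, a comparison added after the values of the 4 genes had been seen. It was called for 2 of 4 genes, *Elane* at 0.76 (SE 0.17, 95% interval 0.41 to 1.10, adjusted p = 0.0201 with limma) and *Ctsg* at 0.59 (SE 0.16, 95% interval 0.26 to 0.91, adjusted p = 0.0487), where 1.49% of all genes were called. *Mpo* was at 0.52 (SE 0.15, adjusted p = 0.0802) and *Prtn3* at 0.37 (SE 0.27, adjusted p = 0.748). The call of *Elane* was lost without experiment 2 (0.65, adjusted p = 0.153), 3 (0.89, adjusted p = 0.17) or 4 (0.60, adjusted p = 0.228). That of *Ctsg* was lost without experiment 1 (0.65), 2 (0.62) or 3 (0.23, adjusted p = 1), and without any 1 of 25 of the 36 arrays (0.48 to 0.59, highest adjusted p = 0.202). The 11 arrays without which it held were 1-2 and 1-3 of untreated unsorted DCs, 1-1, 1-4 and 2-2 of sTM-treated unsorted DCs, 4-1 and 4-2 of untreated TM+ DCs, 2-1 and 4-2 of sTM-treated TM+ DCs, 3-1 of untreated TM- DCs and 3-2 of sTM-treated TM- DCs. Against TM- DCs the same difference was 0.13 to 0.42 and was called for 0 of 4 genes (0% of all genes).

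**Figure D3:**
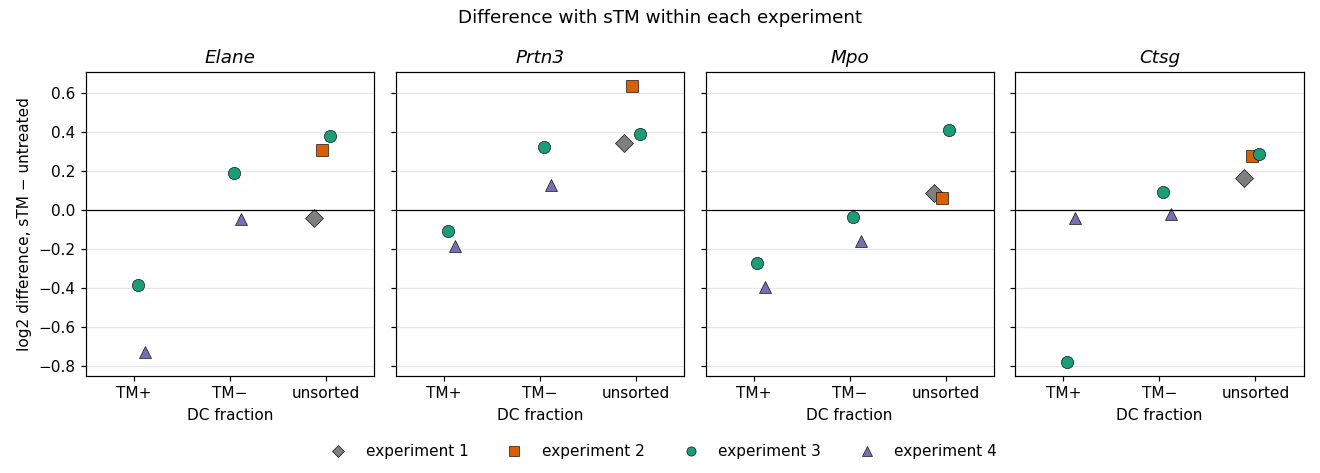
Log2 difference between sTM-treated and untreated arrays (y axis) within each experiment, for TM+, TM- and unsorted DCs (x axis), with 1 point for each experiment that held both treatments. In TM+ DCs all points lay below 0, from -0.04 to -0.78, and in unsorted DCs 11 of 12 lay above 0. Points of different genes in the same experiment came from the same arrays, so these counts are not counts of independent replicates. Of the genes shown, *Elane* alone was called with sTM in TM+ DCs, and none was called in unsorted DCs.

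Unsorted DCs did not always lie between the fractions. In untreated cultures of experiment 3, *Elane* was at 6.01 in unsorted DCs (mean of 2 arrays), near TM- DCs at 5.95 and below TM+ DCs at 6.61. In sTM-treated cultures of experiment 2 it was at 6.54 in unsorted DCs and at 6.11 in TM+ and 5.92 in TM- DCs. In sTM-treated cultures of experiment 3, *Mpo* was at 6.79 in unsorted DCs, above TM+ (6.50) and TM- DCs (6.55), and *Ctsg* at 6.07, above TM+ (5.48) and TM- DCs (5.81). Averaged over treatments, unsorted minus TM+ DCs was -0.23 for *Elane* (adjusted p = 0.115), -0.08 for *Prtn3*, -0.11 for *Mpo* and 0.02 for *Ctsg*, with 0 of 4 called (14.9% of all genes). Unsorted minus TM- DCs was 0.28 for *Elane* (adjusted p = 0.272), 0.27 for *Prtn3*, -0.02 for *Mpo* and 0.02 for *Ctsg*, again with 0 of 4 called (0.196% of all genes).

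Correlations among the 4 genes over the arrays ran from near 0 to moderate. Pearson's r over the 36 arrays, given as a description of arrays that share experiments, was 0.41 between *Elane* and *Mpo*, 0.36 between *Mpo* and *Ctsg*, 0.26 between *Elane* and its neighbour *Prtn3*, 0.18 between *Prtn3* and *Ctsg*, 0.005 between *Elane* and *Ctsg*, and -0.03 between *Prtn3* and *Mpo*. Over the 20 sorted arrays the 6 pairs ran from -0.31 (*Prtn3* and *Mpo*) to 0.67 (*Elane* and *Mpo*), with *Elane* and *Prtn3* at 0.17. After the mean of each group within each experiment was subtracted, they ran from 0.02 (*Mpo* and *Ctsg*) to 0.67 (*Elane* and *Prtn3*). The genes nearest to *Elane* over the 36 arrays were *Abi3* (0.79), *P2ry6* (0.79), *Cenpa* (0.78), *Siglecf* (0.77) and *Rgs12* (0.77). *Cenpa* encodes the histone variant of centromeres and *Siglecf* a sialic acid receptor of eosinophils. Those nearest to *Prtn3* were *Coro1a*, an actin-binding protein of leukocytes (0.88), *Eef1d* (0.86), *Rpl14-ps1* (0.86), *Khk* (0.86) and *Arhgap9* (0.86). For *Mpo* they were *Car7*, *Myh6*, *Tspan2*, *Olfr433* and *Ccr6* (0.63 to 0.69), and for *Ctsg* *Smtnl1*, *Mir199a-1*, *Ccdc180*, *Pde9a* and *Igkv19-93* (0.65 to 0.68). None of the 4 genes was among the 5 nearest of another.

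Of 10 other genes listed with the primary granules, 6 were higher and 2 lower in TM+ DCs, with a median of 0.39. The 2 lower were *Igf2r* (-0.40) and *Bpi* (-0.20, adjusted p = 0.0202 with limma), so the list did not move as a whole. Of all genes 37.3% were called and their median was -0.08. *Gusb*, a lysosomal glucuronidase, was 1.04 higher, and *Ctsc*, which encodes the dipeptidyl peptidase that activates the serine proteases, was 0.67 higher (SE 0.07, adjusted p = 2.24e-07 with limma). *Serpinb1a*, a cytosolic inhibitor of elastase that is also counted among the inhibitors below, was 0.53 higher. *Cd63*, a granule membrane protein, was 0.48 higher. *Prss57*, a further serine protease of these granules, was at -0.0028 (adjusted p = 0.981). With sTM in TM+ DCs 0 of the 10 and 0.853% of all genes were called (median 0.08, all genes -0.02).

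Genes of granulocyte-monocyte precursors were in part higher in TM+ DCs. Of 17, 9 were higher and 2 lower (37.3% of all genes called), with a median of 0.37. *Cd93* was 2.18 higher, *Cebpe*, a factor needed for granulocyte maturation, 1.33 higher, *Cd34*, a surface protein of progenitors, 0.95 higher and *Myb*, a factor of immature blood cells, 0.83 higher. *Kit*, the stem cell factor receptor, was lower (-0.77), and *Gfi1*, a repressor needed for neutrophil development, was at -0.19 and not called (adjusted p = 0.0723). Summarized per array as the mean of the 17, the list was at 8.12 to 8.45 in untreated TM+ DCs, 7.80 to 8.23 in sTM-treated TM+, 7.70 to 7.72 in untreated TM- and 7.50 to 7.98 in sTM-treated TM- DCs. With sTM in TM+ DCs 1 of 17 was called (0.853% of all genes), *Ms4a3*, a membrane protein of these precursors, at -1.20 (adjusted p = 0.0311 with limma). This gene was named after its value had been seen.

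Genes listed under later granules, which are made after the promyelocyte stage, were mostly higher in TM+ DCs. This list also held *S100a8* and *S100a9*, which encode the cytosolic protein calprotectin, and *Ltb4r1*, a surface receptor. Of 15, 9 were higher and 3 lower (37.3% of all genes called), with a median of 0.70. *Ngp* was 2.17 higher, *S100a9* 2.16 and *S100a8* 2.15 higher, and *Ltf*, which encodes lactoferrin, 1.92 higher. The 3 lower were *Mmp9*, a gelatinase (-1.84), *Lcn2* (-0.81) and *Cybb* (-0.36). The spread was wide, and *Ngp* was at 7.71 to 12.57 in TM+ and 6.84 to 10.15 in TM- DCs. With sTM in TM+ DCs 6 of 15 were called (0.853% of all genes), 5 of them lower, *Ltf* (-2.19), *S100a9* (-1.91), *Olfm4* (-1.37), *Cd177* (-1.34) and *Camp* (-1.28), and *Mmp9* was higher (2.03), most of them named after their values had been seen. The difference between unsorted and TM+ DCs in the effect of sTM was called for 7 of these 15 genes (1.49% of all genes), 6 positive and 1 negative.

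**Figure D4:**
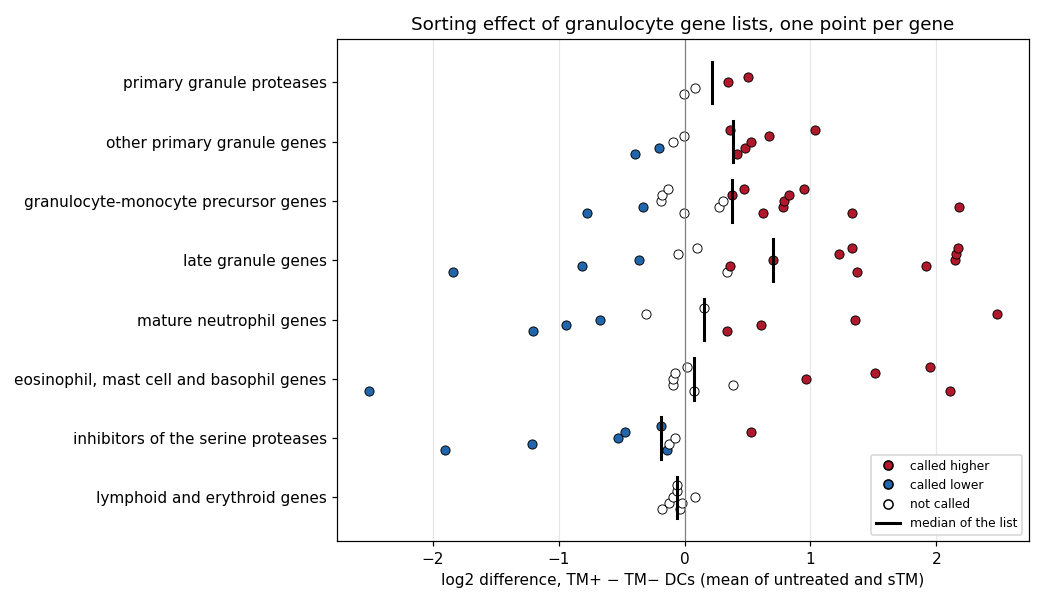
Log2 sorting effect (x axis, TM+ minus TM- DCs over both treatments) of each gene (1 point) in 8 gene lists (y axis), with black bars for the median of each list and colour for genes called higher or lower. The 4 genes described here, in the top row, lay between -0.0019 and 0.51, and genes of later granules reached 2.17.

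The counts of the remaining lists for sorting also stand beside 37.3% of all genes called. Of 9 measured genes of mature neutrophils, 4 were higher and 3 lower in TM+ DCs. *Cxcr2*, a chemokine receptor, was 2.48 higher and *Ly6g*, the neutrophil surface antigen, 1.35 higher. The 3 lower were *Mxd1* (-1.20), *Il1f9* (-0.94) and *Csf3r* (-0.67). Of 11 measured genes of eosinophils, mast cells and basophils, 4 were higher and 1 lower. *Epx*, the eosinophil peroxidase, was 2.11 higher, *Siglecf* 1.95 and *Prg2*, the eosinophil major basic protein, 1.51 higher, while *Hdc*, which makes histamine, was lower (-2.51). Of 8 measured lymphoid and erythroid genes 0 were called for sorting, with effects from -0.18 to 0.08. Inhibitors of the proteases went mostly the other way, with 6 of 9 measured lower and 1 higher in TM+ DCs, led by *Serpinb6b* (-1.90) and *Slpi*, the secretory leukocyte inhibitor of elastase (-1.21). Among 5 measured subunits of the NADPH oxidase 2 were lower, *Cybb* (-0.36) and *Rac2* (-0.33).

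Genes of other cells and of cell division moved with sorting as well. Among 10 measured genes of monocytes and macrophages TM+ DCs were higher in 5 and lower in 2, led by *Ccr2* (4.04), and of 13 DC genes 5 were higher and 7 lower, led by *Cd83* (-2.19). All 15 measured genes of cell division were higher, with a median of 2.06. Per array the mean of these 15 was 9.63 to 10.75 in untreated TM+, 8.76 to 10.53 in sTM-treated TM+, 7.50 to 7.99 in untreated TM- and 6.99 to 8.11 in sTM-treated TM- DCs. The mean of the 11 eosinophil, mast cell and basophil genes was 7.24 to 7.37 in untreated TM+ and 6.77 to 7.12 in sTM-treated TM+ DCs, as against 6.57 to 6.95 and 6.08 to 7.26 in TM- DCs. Their part in the differences of *Elane* and *Prtn3* was not tested.

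Genes next to the 4 on their chromosomes were also read, 3 measured ones on each side. Of all genes 37.3% were called for sorting and 0.853% for sTM in TM+ DCs. Around *Prtn3* and *Elane*, *Ptbp1*, a splicing regulator, was 0.33 higher in TM+ DCs (adjusted p = 0.00188 with limma) and *Misp* lower (-0.22, adjusted p = 0.0193), and *Plppr3*, *Med16*, *R3hdm4* and *Kiss1r* were not called. Around *Mpo*, which lies in a cluster of peroxidase genes, *Epx* was higher, as given above, and *Lpo*, the lactoperoxidase between them, was at -0.16 and not called (adjusted p = 0.239). *Mir142* was higher (0.39, adjusted p = 0.0381), *Rnf43* lower (-0.27, adjusted p = 0.0423), and *Tspoap1* and *Mks1* were not called. *Ctsg* lies in a cluster of mast cell and lymphocyte protease genes, of which *Mcpt2* was 1.67 higher in TM+ DCs (adjusted p = 0.000184) and was -2.73 with sTM in TM+ DCs (adjusted p = 0.00809). Its sTM effect is given because its value had been seen, and its mean of 5.03 lay under the 25th percentile of the arrays (5.24 to 5.53). *Mcpt4*, *Mcpt8*, *Gzme*, *Gzmd* and *Gzmg* were not called for sorting, with effects from -0.09 to 0.05.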

How the data were processed

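RNA of 36 cell samples was hybridized to Affymetrix whole-transcript mouse arrays. The authors normalized and summarized the probes by RMA in APT 1.12.0 with NetAffx release 31 annotation, and the deposited values are linear intensities of 35556 transcript clusters. The sources used here do not say whether 1 normalization covered all arrays. RMA gives the probe intensities of arrays it treats together 1 distribution, so that a shift of all transcripts would not be seen. The deposited values per transcript cluster still differed between arrays, with 75th percentiles of 8.24 to 8.65. Centring on these moved the median sorting effect of all genes from -0.08 to -0.195.

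Log2 was taken of the deposited intensities, without further scaling. Of the clusters, 21789 were paired with 1 gene symbol, 1621 with several and 12146 with none. For each symbol the cluster of highest mean intensity was kept (999 symbols had more than 1), which gave 19938 genes. Sorted DCs (20 arrays) were fitted with limma 3.58.1 and statmod 1.5.0 in R 4.3.3, with sorting, treatment and their interaction and with experiment as a random block (correlation 0.396). Unsorted DCs (16 arrays) had a fit of their own with treatment and that block (0.375), and unsorted against sorted DCs in a fit of all 36 (0.382). P-values were adjusted by the Benjamini-Hochberg method over all genes, and standard errors use the moderated variance. The fits were first tested on simulated data. Errors there were drawn separately for each array beside the experiment, so replicates that share a culture were not modelled. The number of arrays limits the precision. Pairs of arrays share experiment and array number, and either treatment (TM+ against TM-) or fraction (sTM against untreated). They are given as a description without a test, because replicate numbers did not pair the arrays.

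The members and the 12 gene lists were chosen with earlier results of these data known, and the lists were written from general knowledge. The genes named were, by rule, the 4 members, up to 4 called genes of each list with the largest sorting effect, the 5 genes nearest to each member by Pearson's r, and 3 measured neighbours on each side in RefSeq. Beside these, *Prss57*, *Igf2r*, *Bpi*, *Gfi1*, *Kit*, *Mmp9*, *Lcn2*, *Csf3r*, *Itgax*, *Thbd* and the list genes given for sTM were chosen for naming with their values known. The sTM effect of the neighbour *Mcpt2* was chosen in the same way. Promoters and coordinates are of RefSeq on GRCm38.p6, and all 4 genes matched. The alternatives tried were a fixed experiment factor, a fit without experiment, a block by replicate number, averaged replicate arrays, a filter on dim genes (under the 25th percentile), every transcript cluster, centring on the 75th percentile, quantile normalization, trended and robust moderation, array weights, and leaving out each experiment and each array. Python 3.11.15 with pandas 2.3.3, numpy 2.4.6 and matplotlib 3.10.9 was used for descriptions and plots.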

Additional observations from a re-analysis of the deposited data

Results flagged for a closer look

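The effect of sTM differed between unsorted and TM+ DCs for *Elane*, by 0.76 (adjusted p = 0.0201 with limma), and for *Ctsg*, by 0.59 (adjusted p = 0.0487), in a comparison added after the values had been seen. Effects in unsorted DCs were 0.15 and 0.22, and those in TM+ DCs -0.58 and -0.40. The share of TM+ cells in the unsorted cultures was not measured by these arrays.

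In 2 of the 24 groups of arrays examined, 1 array stood apart from the others by Dixon's 95% criterion, which chance gives in about 1 of 20 groups. *Elane* was at 5.79 in untreated TM- array 3-1, below the other 3 arrays of its group at 6.11 to 6.13. *Mpo* was at 7.03 in untreated TM+ array 4-2, above the other 3 at 6.75 to 6.78.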

How the results depend on the processing

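The sorting effect of *Elane*, over both treatments and in untreated cultures, kept its direction and its call in all 33 alternatives (0.39 to 0.61, highest adjusted p = 0.0181, and 0.62 to 0.98, highest adjusted p = 0.0379). Over 48 results and 1840 values, 1682 kept direction and side of the threshold, 65 lost a call, 27 gained one and 66 changed sign, of which 0 were called. No cause was tested. Each gene had 1 transcript cluster, so another cluster per gene could not be tried. Replicate numbers did not pair the arrays: r of the deviations of same-numbered TM+ and TM- arrays was -0.249 to 0.306, and of unsorted arrays 0.026 and 0.133.

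Calls lost. With a replicate block they were *Prtn3* sorting (0.35, adjusted p = 0.0596), *Elane* with sTM in TM+ DCs (-0.62, 0.0625) and *Ctsg* in the difference of sTM effects, unsorted minus TM+ DCs (0.58, 0.11). With no experiment term they were *Prtn3* sorting (0.35, 0.104), *Elane* with sTM in TM+ DCs (-0.62, 0.0668) and the difference of sTM effects for *Elane* (0.77, 0.109) and *Ctsg* (0.58, 0.274). With averaged replicate arrays, which leave fewer degrees of freedom, they were the same 4 (0.35, -0.59, 0.82 and 0.60). Without experiment 2 they were again these 4 (0.14, -0.56, 0.65 and 0.62), without experiment 4 the first 3 (0.44, -0.38 and 0.60), and without experiment 3 the last 2 (0.89 and 0.23). Calls over all genes changed in these settings too. For sorting the main fit called 7438, and replicate block, no experiment term and averaging 6503, 4827 and 2411. For sTM in TM+ DCs these numbers were 170, 18, 19 and 0, and for the difference of sTM effects 297, 158, 15 and 0. Without experiment 2 the calls were 7577, 20 and 62, and without experiment 4 they were 2469, 637 and 563. Without experiment 3 the difference had 35. Centring on the 75th percentile ended the calls of *Prtn3* sorting (0.23) and of *Ctsg* in the difference of sTM effects (0.63), quantile normalization those of *Elane* (0.64) and *Ctsg* (0.51) in that difference, array weights that of *Prtn3* sorting (0.15), and all transcript clusters (0.59) or leaving out experiment 1 (0.65) that of *Ctsg* in that difference. Over all genes that difference had 241 calls with centring, 178 with quantile normalization and 168 without experiment 1. Sorting had 11981 calls with centring and 12088 with array weights.

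Calls gained. Array weights gave *Mpo* sorting (0.11), sorting in untreated cultures for *Mpo* (0.21) and *Ctsg* (0.35), *Elane* sorting with sTM (0.24), mean sTM effects of *Elane* (-0.22), *Mpo* (-0.23) and *Ctsg* (-0.27), sTM effects in TM+ DCs of *Mpo* (-0.32) and *Ctsg* (-0.53), interactions of *Elane* (-0.38) and *Ctsg* (-0.53) and the difference of sTM effects of *Mpo* (0.47). Calls over all genes rose with array weights as well. Of 19938 genes, 12088 were called for sorting, 9922 for sorting in untreated cultures and 7500 with sTM. The main fit called 7438, 4205 and 4792. Array weights also called 1840 for the mean sTM effect, 1233 in TM+ DCs, 341 for the interaction and 858 for the difference. The main fit called 3, 170, 2 and 297. Quantile normalization gave sorting with sTM for *Elane* (0.29) and *Prtn3* (0.43), where 4516 of all genes were called. Leaving out experiment 3 gave the same for *Elane* (0.25) and *Prtn3* (0.62), and the mean sTM effect (-0.41) and interaction (-0.74) of *Elane*. Without experiment 3 all genes had 5483 calls for sorting with sTM, 85 for the mean sTM effect and 300 for the interaction. Leaving out experiment 2 gave *Prtn3* sorting in untreated cultures (0.32), experiment 4 *Ctsg* with sTM in TM+ DCs (-0.73) and experiment 1 *Elane* in unsorted minus TM- DCs (0.32). Over all genes the calls there were 4410, 637 and 372, against 4205, 170 and 39 in the main fit. *Elane* in unsorted minus TM+ DCs was called with no experiment term (-0.38) and with a replicate block (-0.34). For all genes the calls there were 7563 and 7265, against 2977 in the main fit.

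Signs changed. With centring they did so for *Mpo* sorting (-0.029), sTM in TM- DCs of *Elane* (-0.018), *Prtn3* (-0.016) and *Ctsg* (-0.012), unsorted minus TM+ DCs of *Prtn3* (0.060) and *Mpo* (0.037) and unsorted minus TM- DCs of *Mpo* (0.0086). With quantile normalization they did so for *Ctsg* sorting (0.085) and unsorted minus TM+ DCs (-0.066). With array weights they did so for *Ctsg* sorting (0.085), *Mpo* sorting with sTM (0.021), sTM in TM- DCs of *Elane* (-0.027) and *Ctsg* (-0.0022), the *Prtn3* interaction (-0.050), unsorted minus TM+ DCs of *Prtn3* (0.11) and *Ctsg* (-0.017) and unsorted minus TM- DCs of *Mpo* (0.030). Without experiment 2 they did so for *Ctsg* sorting (0.0047), sorting with sTM of *Prtn3* (-0.048) and *Mpo* (0.013), *Prtn3* with sTM in TM+ DCs (-0.15), its interaction (-0.37) and *Mpo* in unsorted minus TM- DCs (0.069). Without experiment 4 they did so for *Ctsg* sorting (0.12), *Mpo* with sTM in TM- DCs (0.0025) and *Ctsg* in unsorted minus TM+ DCs (-0.082). Without experiment 3 they did so for *Ctsg* sorting in untreated cultures (-0.086), sTM in TM- DCs of *Elane* (-0.041) and *Prtn3* (-0.13), *Prtn3* in unsorted minus TM+ DCs (0.037) and *Ctsg* in unsorted minus TM- DCs (-0.077). *Prtn3* in unsorted minus TM+ and *Mpo* in unsorted minus TM- DCs changed sign with no experiment term (0.099 and 0.015) and with a replicate block (0.042 and 0.0003). *Ctsg* did so in unsorted minus TM+ and unsorted minus TM- DCs with a fixed experiment factor (-0.036 and -0.038) and without experiment 1 (-0.031 and -0.033).

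Leaving out 1 array at a time changed a call or a sign in 16 results. The sorting effect was 0.28 to 0.39 for *Prtn3* and -0.055 to 0.041 for *Ctsg*, and with sTM 0.16 to 0.26 for *Elane*, 0.23 to 0.45 for *Prtn3* and -0.12 to 0.0036 for *Mpo*. The sTM effect was -0.64 to -0.51 for *Elane* in TM+ DCs, and in TM- DCs -0.027 to 0.11 for *Elane*, -0.040 to 0.11 for *Prtn3* and -0.018 to 0.10 for *Ctsg*. The *Prtn3* interaction was -0.089 to 0.13. Unsorted minus TM+ DCs was -0.11 to 0.0054 for *Prtn3* and -0.017 to 0.080 for *Ctsg*, and unsorted minus TM- DCs -0.055 to 0.017 for *Mpo* and -0.035 to 0.044 for *Ctsg*. The difference of sTM effects was 0.45 to 0.59 for *Mpo* and 0.48 to 0.67 for *Ctsg*.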
